A study of Mus musculus with 15 samples.

Results

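The astrocyte identity genes described here are Gfap, Aqp4, Slc1a2, Slc1a3, Aldoc, Glul, Gja1, Aldh1l1 and Sparcl1. They were chosen by name, as every listed transcript whose GENCODE M21 gene name is one of these 9, and 13 of the 10370 listed transcripts belonged to them. They make up 9 of the 7740 genes with a listed transcript, and all 13 transcripts are annotated as protein coding. Expression was measured by RNA-seq of total RNA from cortex of male C57BL/6 mice (C57Bl/6J in the study's methods) labelled as 12 weeks of age, 1 month after the procedure. The HF-HI group (8 libraries) received high-frequency head impact, which is repeated impacts under isoflurane on consecutive days. The Sham group (7 libraries) had the same handling and anesthesia without impacts, so both groups share the anesthesia. The tissue was whole cortex, not sorted astrocytes, and fewer astrocytes cannot be told apart from less RNA per astrocyte in such samples.

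Astrocytes are glial cells that take up glutamate and potassium around synapses, convert glutamate to glutamine, cover blood vessels with endfeet and are joined to each other by gap junctions. After brain injury they can become reactive, with a thicker intermediate filament skeleton, and Gfap is the gene most used to follow this. The 9 genes cover separate tasks of the cell, and the comparison asks how each of them stood 1 month after HF-HI.

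Aldoc and Slc1a2 were the members with several listed transcripts, and their distinguishing sequences are shown because values are given below for each transcript. Aldoc encodes aldolase C, a glycolytic enzyme. Its listed transcripts, Aldoc-201 and Aldoc-202, carry the same coding sequence of 1092 bases. They start 1232 bases apart on chromosome 11 and differ in the 3′ UTR, which has 1427 bases in Aldoc-201 and 406 in Aldoc-202. The sequences before both starts, from RefSeq promoter windows on GRCm38.p6, plus strand, lie at chr11:78322823-78322967 (145 bases) for Aldoc-201 and at chr11:78323948-78324197 (250 bases) for Aldoc-202. Capitals mark matches on either strand to TTGGC, the letters of the core recognised by NFI factors, or to TTCNNNGAA, the letters of a STAT site. The GC box (GGGCGG), the CCAAT box and the TATA box (TATAAA) were searched as well and had no match in these windows as printed. For Aldoc-201 the print stops at its annotated start, and the full RefSeq window of 250 bases holds 1 GC box that is not within the printed part.
Aldoc-201: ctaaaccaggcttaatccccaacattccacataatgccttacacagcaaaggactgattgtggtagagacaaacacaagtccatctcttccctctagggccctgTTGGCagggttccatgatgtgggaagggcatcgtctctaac
Aldoc-202: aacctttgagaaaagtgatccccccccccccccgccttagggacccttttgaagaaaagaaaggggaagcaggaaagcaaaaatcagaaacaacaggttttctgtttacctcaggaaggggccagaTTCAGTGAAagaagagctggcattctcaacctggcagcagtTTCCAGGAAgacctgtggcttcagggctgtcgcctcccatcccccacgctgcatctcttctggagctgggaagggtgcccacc
The STAT letters occur in 7.02% of the 32851 RefSeq windows of 250 bases and the NFI letters in 28.3% of those of 145 bases. Such a match is a description of the letters and not a site.

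Slc1a2 encodes the glutamate transporter GLT-1. Its 4 listed transcripts combine a pair of coding starts with a pair of coding ends. Slc1a2-202 and Slc1a2-204 begin upstream, and Slc1a2-201 and Slc1a2-203 begin 47779 bases downstream of Slc1a2-202 on chromosome 2. In the coding starts, capitals mark the bases before the part that all 4 share.
Slc1a2-202 and Slc1a2-204, coding start: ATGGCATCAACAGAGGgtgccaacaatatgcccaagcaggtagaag
Slc1a2-201 and Slc1a2-203, coding start: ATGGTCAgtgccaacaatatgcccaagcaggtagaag
In the last 60 coding bases, capitals mark the stop codon.
Slc1a2-202 and Slc1a2-203, coding end: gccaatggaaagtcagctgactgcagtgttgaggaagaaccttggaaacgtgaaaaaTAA
Slc1a2-201 and Slc1a2-204, coding end: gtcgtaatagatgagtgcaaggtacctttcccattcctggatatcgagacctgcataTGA

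HF-HI libraries were shallower than Sham libraries. The size factor, which scales a library for its depth, was 0.818 to 1.47 for Sham against 0.501 to 1.22 for HF-HI, and the mean log2 size factor differed by −0.55 (exact two-sided permutation p = 0.0280). The difference was −0.51 with an exact permutation p between 0.0516 and 0.0539 when Sham replicate 1, 4 or 5 was left out. A library held 3496103 to 10582858 reads over the listed transcripts. The first 2 Sham replicates and the second and the fifth of HF-HI (4 libraries) were rich in Ttr, a choroid plexus gene, with 6589 to 8663 normalized counts against 21.0 to 176 in the other 11. All 8 neuron markers were listed, with a summed level of 51831 to 53961 normalized counts for Sham and 51869 to 56352 for HF-HI. The 6 listed striatum markers summed to 6346 to 9606 and 4395 to 9213, respectively. All 6 had a negative log2 difference of HF-HI minus Sham, and Pde10a was the one called (log2 difference −0.37, limma unadjusted p = 0.00558), a call that was lost among libraries with a size factor of at least 1 (−0.18, unadjusted p = 0.0752). The part of depth, choroid plexus or striatal tissue in the results below was not tested beyond the fits named beside them.

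All 9 astrocyte genes had a listed transcript, with a summed level of 62056 to 64441 normalized counts for Sham and 60281 to 67461 for HF-HI. A normalized count is a read count divided by the size factor of its library. Levels of different genes were compared as normalized counts per kilobase of annotated transcript. On that scale the Sham order was Glul (3884 ± 90.8, SD), Sparcl1 (3853 ± 132), Slc1a2 (3653 ± 108), Aldoc (2175 ± 108), Slc1a3 (706 ± 18.3), Gja1 (344 ± 12.6), Aqp4 (187 ± 8.18), Gfap (178 ± 16.1) and Aldh1l1 (118 ± 6.84). The ranges of Glul and Sparcl1, of Sparcl1 and Slc1a2, and of Aqp4 and Gfap overlapped among Sham libraries, so these neighbours were not separated beyond their spread. Glul, Sparcl1 and Slc1a2 had percentiles of 99.2, 99.2 and 99.1 among all genes on this scale, and Aldh1l1 had a percentile of 49.9.

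Between the groups, 1 of the 9 genes was called at an unadjusted p under 0.05 when recovered reads were summed per gene, which was Aldoc, lower in HF-HI. The background was 9.43% of all 7740 genes (5.19% higher and 4.24% lower in HF-HI). Among all genes, 1 passed a Benjamini-Hochberg adjusted p under 0.1 in limma (0.0129%), and it was no astrocyte gene. The differences of the 9 genes ranged from −0.13 to 0.08 on the log2 scale with a median of −0.01, against a median of −0.00363 over all genes. The sign was negative for 5 of the 9. By transcript, 1 of 13 was called on the variance-stabilized (VSD) values, Aldoc-201, against a background of 8.83% of 10370 transcripts (4.94% higher, 3.9% lower). No transcript of any gene passed the adjusted threshold there (0 of 10370 by limma, and 916 at an unadjusted p under 0.05).

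**Figure D1:**
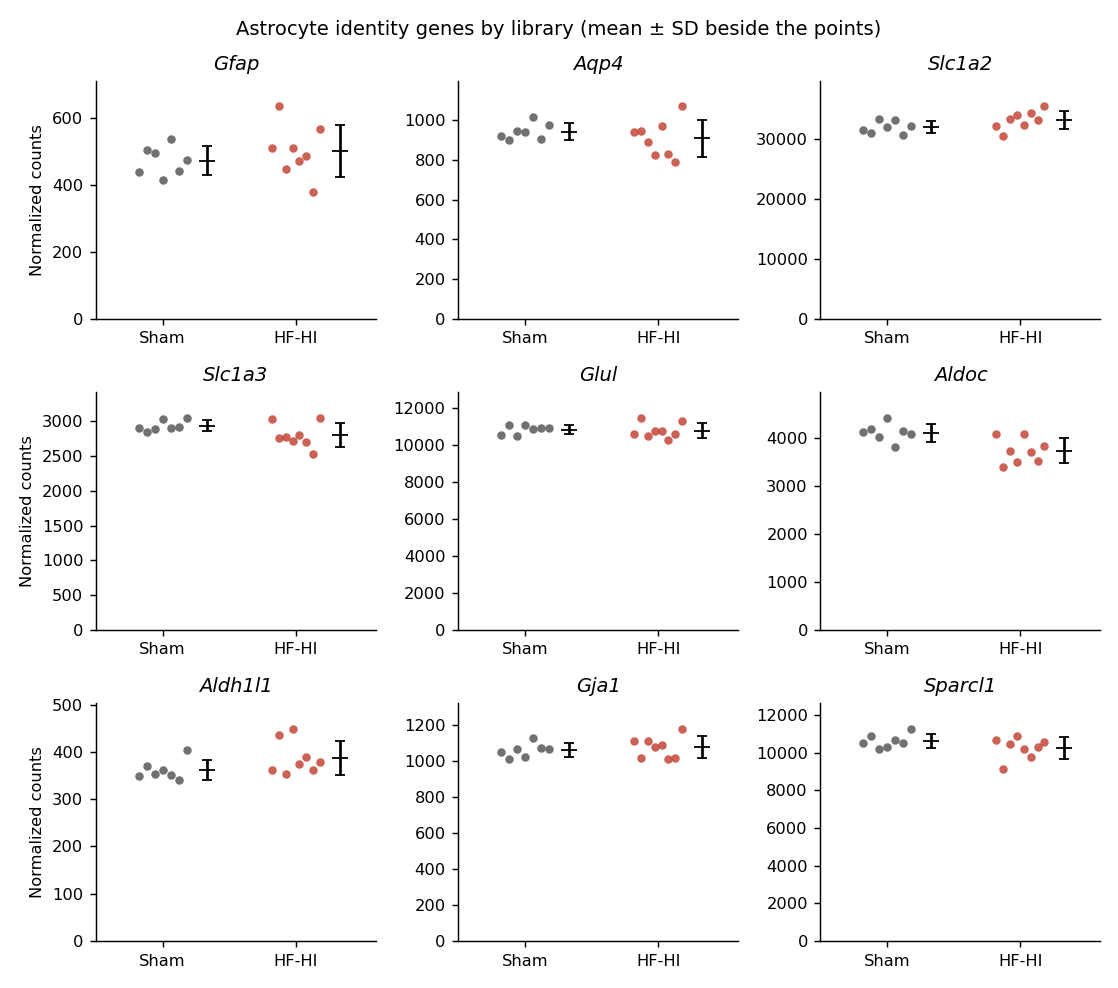
Normalized counts (y axes from 0) of the 9 astrocyte identity genes, with a point per library in the 7 Sham and 8 HF-HI libraries and the mean ± SD to the right of each group. The groups overlap in every panel, and in the Aldoc panel every HF-HI point is under 4115, the median of Sham.

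Gfap encodes the glial fibrillary acidic protein of the astrocyte cytoskeleton. Its listed transcript Gfap-201 (ENSMUST00000067444, chromosome 11, 102887336 to 102897131, minus strand) had a lowest, median and highest value of 415, 473 and 537 normalized counts in Sham. In HF-HI the values were 379.8, 498 and 634. The groups overlapped widely, since HF-HI held both the lowest library (replicate 7) and the highest (replicate 2). The means were 472 ± 42.7 in Sham and 501 ± 76.6 in HF-HI (SD). The log2 difference was 0.08 with a 95% confidence interval of −0.09 to 0.26 (limma unadjusted p = 0.321, adjusted p = 0.797). In percent, that interval runs from −6.01 to 19.5, so an increase in mean Gfap beyond 19.5% lies outside it. HF-HI replicate 2, the library highest in Gfap, was also one of the 4 rich in Ttr. Without it the difference was 0.05, which was the lowest value over the fits that each left out 1 library.

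Aqp4 encodes aquaporin-4, the water channel of astrocyte endfeet. Aqp4-201 (ENSMUST00000079081, chromosome 18, minus strand) ran from 899 over a median of 939 to 1015 normalized counts in Sham. In HF-HI it ran from 789 over 916 to 1069.6. HF-HI libraries stood on both sides of the Sham range, with 4 below every Sham library and 1 above all of them. HF-HI minus Sham was −0.04 on the log2 scale (95% confidence interval −0.16 to 0.07, limma unadjusted p = 0.456, adjusted p = 0.863). Its sign turned with the log2 size factor as a covariate (0.04) and among libraries with a size factor of at least 1 (0.05). The 3 HF-HI libraries of that depth had 893 to 1069.6 normalized counts, and the 5 shallower ones had 789 to 948.

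Slc1a2 and Slc1a3 encode GLT-1 and GLAST, the transporters that clear glutamate from the synapse. Summed over its transcripts, Slc1a2 had a lowest, median and highest value of 30795, 32045 and 33345 normalized counts in Sham. In HF-HI the values were 30484, 33331 and 35479. The median of Sham was exceeded by 7 of 8 HF-HI libraries and the highest Sham library by 4, while HF-HI replicate 2 was the lowest of all 15. On the log2 scale the difference was 0.05 (95% confidence interval −0.01 to 0.11, limma unadjusted p = 0.0770, adjusted p = 0.598). Slc1a2 was called higher without HF-HI replicate 2 (0.07, unadjusted p = 0.0132), without Sham replicate 3 (0.06, unadjusted p = 0.0498) or Sham replicate 5 (0.06, unadjusted p = 0.0490), all limma unadjusted. It was also called with quantile normalization (0.18), with library weights (0.06), among libraries with a size factor of at least 1 (0.08) and without the libraries rich in Ttr (0.07), with an unadjusted limma p between 0.00193 and 0.0334. The value with quantile normalization was the highest of all alternatives. Settings without a call included the log2 size factor as a covariate (0.06, limma unadjusted p = 0.129) and the replicate block (0.04, unadjusted p = 0.183). Log2 of summed counts (pseudocount 1) gave no call either (0.05, unadjusted p = 0.158). With 1 library left out at a time, the unadjusted limma p reached 0.176.

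Slc1a3-201 (ENSMUST00000005493, chromosome 15, 8634124 to 8710764, minus strand) ran from 2854 over 2909.9 to 3054 normalized counts in Sham. In HF-HI it ran from 2537 over 2773 to 3054. In HF-HI, 6 of 8 values were under the lowest Sham library, and replicates 1 and 8 (3031 and 3054) lay near the top of the Sham range. The log2 difference was −0.07 (95% confidence interval −0.14 to 0.01, limma unadjusted p = 0.0753, adjusted p = 0.594). It was called lower without HF-HI replicate 1 (−0.08, unadjusted p = 0.0262) or without HF-HI replicate 8 (−0.09, unadjusted p = 0.0180), and with the log2 size factor as a covariate it was −0.02.

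The differences of the 2 transporters had opposite signs, and neither passed the test. Normalized counts of Slc1a2 over those of Slc1a3 gave a ratio of 10.9 ± 0.420 in Sham, from 10.5 to 11.5. In HF-HI the ratio was 11.9 ± 0.856, from 10.6 to 13.1, and 5 of 8 HF-HI libraries lay above every Sham library. The highest ratios were those of HF-HI replicates 7, 6 and 4 (13.1, 12.7 and 12.5), which had size factors under 1. The highest Sham ratio was that of replicate 3, the shallowest Sham library. HF-HI replicates 1 and 2, also with size factors under 1, had the lowest HF-HI ratios. Replicates 3 and 8 of HF-HI, with size factors of at least 1, exceeded every Sham library. The ratio was formed after the values of both genes were seen and is a description with no test. The part of depth in it was not tested.

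Within Slc1a2, nearly all reads were assigned to Slc1a2-202, which has the upstream start and the TAA end shown above. Its share was 93.3% ± 0.390 in Sham and 94.1% ± 0.499 in HF-HI. Slc1a2-203, with the downstream start and the same end, held 4.997% ± 0.465 and 4.39% ± 0.640. Slc1a2-201 and Slc1a2-204, with the TGA end, each held under 1% (0.872% and 0.830% in Sham, 0.747% and 0.771% in HF-HI). No share was called, against 6.18% of 4140 transcripts in all (3.33% higher, 2.85% lower), and the smallest unadjusted p by limma was 0.0829, for Slc1a2-202. Summed by start, the downstream pair had 1646 to 2107 normalized counts for Sham against 1393 to 2079 for HF-HI, with 7 of 8 HF-HI values under the median of Sham. The upstream pair had 29139.6 to 31444 and 28773 to 33401, with 7 of 8 HF-HI values over the median of Sham. Summed by end, the TGA pair had a mean of 544 ± 70.8 in Sham and 504 ± 113 in HF-HI, and 272 in HF-HI replicate 2. The division of reads between these transcripts was estimated by the authors' counting, since they share most of their sequence.

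Glul encodes glutamine synthetase, which turns the glutamate taken up into glutamine. Glul-201 (ENSMUST00000086199, chromosome 1, 153899944 to 153909723, plus strand) had a lowest, median and highest value of 10467, 10915 and 11108 normalized counts for Sham, against 10256, 10672 and 11489 for HF-HI. The groups overlapped, with means of 10843 ± 253 and 10779 ± 418. HF-HI minus Sham was −0.01 on the log2 scale, and its 95% confidence interval from −0.06 to 0.04 was the narrowest of the 9 (limma unadjusted p = 0.687, adjusted p = 0.936). That interval is −4.20% to 2.94%.

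Aldoc had a lowest, median and highest value of 3811, 4115 and 4421 normalized counts in Sham, summed over both transcripts. In HF-HI the values were 3399, 3722 and 4089.6. Every HF-HI value was under the median of Sham and 5 of the 8 were under its lowest library, while 4 Sham libraries exceeded the highest of HF-HI. The means were 4107 ± 184 and 3732 ± 258, a change of −9.14%. On the log2 scale the difference was −0.13 with a standard error of 0.04 and a 95% confidence interval of −0.22 to −0.05 (limma unadjusted p = 0.00494). Adjusted over all genes, the limma p was 0.291, so the difference did not pass the threshold.

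Over all libraries, the relative difference in Aldoc was larger in the transcript with the upstream start. Aldoc-201 (ENSMUST00000017534, chromosome 11, 78322968 to 78327781, plus strand) had a lowest, median and highest value of 941, 1053 and 1139.8 normalized counts in Sham. In HF-HI the values were 577, 835 and 1058, and 7 of the 8 were under the lowest Sham library. The means were 1049.6 ± 70.9 and 840.5 ± 138, a log2 ratio of −0.32. On the VSD scale, where a doubling from 1000 normalized counts is a step of 0.53, the difference was −0.15 (limma unadjusted p = 0.00237, adjusted p = 0.338). Aldoc-202 (ENSMUST00000102478, chromosome 11, 78324200 to 78326760, plus strand) had 3058 ± 191 normalized counts for Sham against 2891 ± 191 for HF-HI. Its VSD difference was −0.05 (limma unadjusted p = 0.102), and 7 of 8 HF-HI values were under the median of Sham. The share of Aldoc-201 in Aldoc was 25.6% ± 1.92 in Sham and 22.5% ± 2.89 in HF-HI. That share was not called (limma unadjusted p = 0.0604), though it was without Sham replicate 4 (unadjusted p = 0.0380) or without HF-HI replicate 5 (unadjusted p = 0.0352).

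The call of Aldoc moved with library depth. With the log2 size factor as a covariate the log2 difference was −0.07 (limma unadjusted p = 0.131). Among libraries with a size factor of at least 1 (6 Sham, 3 HF-HI) it was −0.09 (unadjusted p = 0.0828). The call of Aldoc-201 was lost in both fits, with VSD differences of −0.09 (unadjusted p = 0.0602) and −0.05 (unadjusted p = 0.156), and in the deeper libraries Aldoc-202 also had −0.05. Equal VSD differences stand for a larger relative change at a lower level, since a doubling is 0.53 from 1000 normalized counts and 0.89 from 10000. In the deeper libraries the means were 1034.6 for Sham and 960.2 for HF-HI in Aldoc-201, and 3088.9 and 2917.9 in Aldoc-202. There Aldoc-201 had 941 to 1123 normalized counts for Sham against 887 to 1058 for HF-HI. The 5 shallower HF-HI libraries had 577 to 858, and the 1 shallower Sham library, replicate 3, had 1139.8, the highest of all. At low depth, Sham was thus represented by 1 library. Without the 4 libraries rich in Ttr the difference of Aldoc was −0.13 (unadjusted p = 0.0144), and in the 15 fits that each left out 1 library the unadjusted p stayed between 0.00159 and 0.0134.

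**Figure D2:**
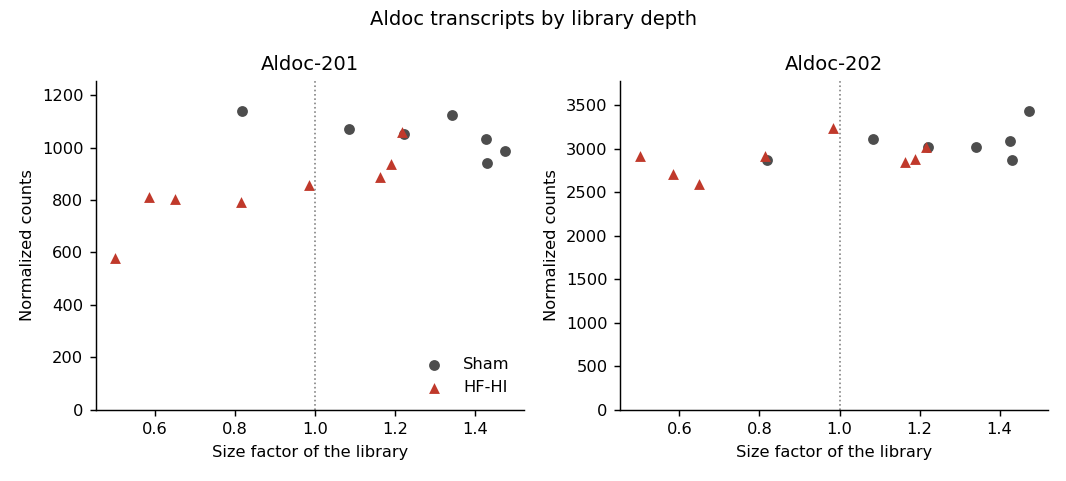
Normalized counts (y axes from 0) of Aldoc-201 and Aldoc-202 against the size factor of each library, with Sham as circles, HF-HI as triangles and a dotted line at a size factor of 1. The 5 HF-HI libraries left of the line have 577 to 858 normalized counts of Aldoc-201, and the Sham library there has 1139.8.

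Aldh1l1 encodes a cytosolic folate enzyme much used as a pan-astrocyte marker. Aldh1l1-201 (ENSMUST00000032175, chromosome 6, 90550805 to 90599169, plus strand) had a lowest, median and highest value of 341, 353 and 404 normalized counts for Sham, against 353, 377 and 449 for HF-HI. In HF-HI, 7 of 8 values exceeded the median of Sham and 2 exceeded its highest library (replicates 2 and 4). The log2 difference was 0.08 (95% confidence interval −0.03 to 0.19, limma unadjusted p = 0.145, adjusted p = 0.689), and it was 0.02 with the log2 size factor as a covariate.

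Gja1 encodes connexin 43, the main gap junction protein of astrocytes. Gja1-201 (ENSMUST00000068581, chromosome 10, 56377330 to 56390415, plus strand) had a lowest, median and highest value of 1009.7, 1065 and 1127 normalized counts for Sham, against 1012, 1084 and 1177 for HF-HI. The groups overlapped over nearly their whole range. HF-HI minus Sham was 0.03 on the log2 scale (95% confidence interval −0.05 to 0.11, limma unadjusted p = 0.402, adjusted p = 0.834). The difference was 0.08 with the log2 size factor as a covariate (limma unadjusted p = 0.0821). Among libraries with a size factor of at least 1 it was 0.09 (unadjusted p = 0.0737).

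Sparcl1 encodes hevin, a secreted protein that promotes synapse formation. Sparcl1-201 (ENSMUST00000031249, chromosome 5, 104079111 to 104113733, minus strand) had a lowest, median and highest value of 10208, 10528 and 11277 normalized counts for Sham, against 9115, 10393 and 10884 for HF-HI. In HF-HI, 3 values were under the lowest Sham library, with replicate 2 the lowest. On the log2 scale the difference was −0.05 (95% confidence interval −0.12 to 0.02, limma unadjusted p = 0.129, adjusted p = 0.683).

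**Figure D3:**
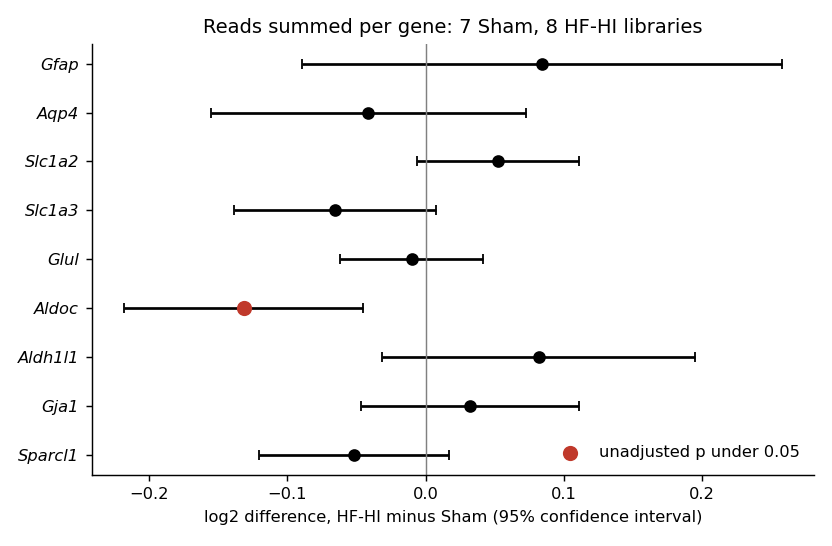
Log2 difference of HF-HI minus Sham with its 95% confidence interval (x axis) for each of the 9 astrocyte identity genes (y axis), from reads summed per gene. The interval of Aldoc, −0.22 to −0.05, excludes 0 and is marked in red, and the other 8 include it.

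The spread between libraries was larger in HF-HI for all 9 genes. The coefficient of variation (SD over mean) was 2.34% to 9.05% in Sham and 3.88% to 15.3% in HF-HI. Aqp4 went from 4.38% to 10.1%, Slc1a3 from 2.59% to 6.12%, and Gfap from 9.05% to 15.3%. Of all 7740 genes, 64.9% also had a larger value in HF-HI. With the counting error of the reads subtracted, which is larger in the shallower HF-HI libraries, it was still larger in 9 of 9 members and in 56.2% of all genes. Without HF-HI replicate 2, the subtracted value was larger in 9 of 9 members and in 49.9% of all genes, although for Sparcl1 it was then 3.31% in Sham and 3.36% in HF-HI. The spread was examined after the values were seen, and it was not tested.

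Pairs of members varied together to unequal degrees from library to library. Over the 15 libraries, with group means removed, the 36 pairs of members had a median Pearson correlation of 0.227, with 7 pairs above 0.5 and 13 below 0. Aqp4 varied most like Slc1a3 (0.785) and Gja1 (0.698), and Slc1a3 like Gja1 (0.629). Aldoc and Aldh1l1 had the lowest value (−0.432). All these genes were read from the same libraries and share their scaling and depth. The genes whose deviations were most like the mean of the members were D10Wsu102e (0.893), Adam22 (0.852) and Impdh1 (0.838). Those most like Gfap were Hectd2 (0.904), Rragb (0.805) and Usp53 (0.798). Those most like Aqp4 were Zyg11b (0.868), Dnajc3 (0.849) and Gmfb (0.845), and those most like Slc1a2 were Ncoa2 (0.940), Ash1l (0.899) and Kcnq3 (0.871). Each trio holds the 3 highest of 7714 values for the mean of the members, or of 7722 for a single gene.

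Further genes used as astrocyte genes were followed in 6 lists by role. The lists were chosen with earlier results of these data known, so the shares called are a description. In whole cortex, reads of these genes from other cell types are included. Of the 171 genes on the 6 lists, 114 had a listed transcript. Of the 114, 17 (14.9%) were called at an unadjusted p under 0.05, against 9.43% of all genes. Of the 17, 4 were higher and 13 lower in HF-HI, and none passed an adjusted p under 0.1 by limma. The median log2 difference over the 114 was −0.02 and 54.4% of them were negative, against 52.0% of all genes. The count was 7 of 114 (6.14%, against 6.14% of all genes) with the log2 size factor as a covariate. It was 12 (10.5% against 5.18%) among libraries with a size factor of at least 1, and 9 (7.89% against 7.003%) without the libraries rich in Ttr. Of the 17 calls, 4 were kept in the first of these fits (Hepacam, S100a1, Id2 and Rorb), 7 in the second and 8 in the third, and the sign of all 17 was kept. The calls of Id2 and Rorb were lost with the replicate block, and that of Rorb with library weights.

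Among 16 listed transporter and ion handling genes, 2 were called, both lower. Slc7a11, the cystine-glutamate exchanger, had 717 ± 50.2 normalized counts for Sham against 619 ± 80.9 for HF-HI (log2 difference −0.19, limma unadjusted p = 0.0150). Slc39a12, a zinc transporter, had 341 ± 20.9 and 307 ± 28.5 (−0.15, unadjusted p = 0.0227). The median of the list was −0.03. The call of Slc7a11 was lost with the log2 size factor as a covariate (−0.08, unadjusted p = 0.280), among libraries with a size factor of at least 1 and without the libraries rich in Ttr. The call of Slc39a12 was lost under the first 2 of these settings (p up to 0.235) and without HF-HI replicate 3 or 6 (p up to 0.0563).

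Among 15 listed genes of endfeet and junctions, 2 were called, both lower, although 11 of the 15 had a positive difference and the median was 0.02. Hepacam encodes GlialCAM, an adhesion protein that brings MLC1 to astrocyte junctions. It had a lowest, median and highest value of 332, 358 and 386 normalized counts for Sham, against 301, 318 and 339 for HF-HI. Every HF-HI value was under the median of Sham, and 6 were under its lowest library. HF-HI differed by −0.18 on the log2 scale (95% confidence interval −0.27 to −0.08, limma unadjusted p = 0.00113, adjusted p = 0.204). Its partner Mlc1 had 819 ± 48.1 and 734 ± 83.1 (−0.15, unadjusted p = 0.0290). The call of Hepacam was kept in all 10 alternatives and all 15 fits that each left out 1 library, with an unadjusted p of at most 0.0170, whereas that of Mlc1 was lost without replicate 2, 3 or 4 of Sham or 3 or 7 of HF-HI, with the log2 size factor as a covariate and without the libraries rich in Ttr (p up to 0.131).

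Among 26 listed metabolic enzymes, 1 was called. Prdx6, an antioxidant peroxiredoxin, had 959 ± 70.8 normalized counts for Sham against 882 ± 44.4 for HF-HI (log2 difference −0.10, limma unadjusted p = 0.0414). With 1 library left out at a time, its call held for 5 of 15 libraries (Sham replicate 4 and replicates 1, 2, 5 and 8 of HF-HI), with p up to 0.0934. It was also lost with quantile normalization, under both depth settings (the covariate and the deeper libraries) and without the libraries rich in Ttr (p up to 0.288). The median of the list was −0.00919.

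Among 31 listed secreted and surface proteins, 1 was called higher and 4 lower, with a median of −0.03. Ncan, the perineuronal net proteoglycan neurocan, had 1847 ± 100.3 normalized counts for Sham against 1969 ± 70.8 for HF-HI (log2 difference 0.10, limma unadjusted p = 0.0117), and every HF-HI value exceeded the median of Sham. The call of Ncan was lost with the log2 size factor as a covariate (0.06, unadjusted p = 0.144). Gpm6b, a membrane glycoprotein, had 10002 ± 279 and 9574 ± 350.0 (−0.06, unadjusted p = 0.0281). Sparc, a matricellular protein related to Sparcl1, had 589 ± 55.7 and 534 ± 45.9 (−0.13, unadjusted p = 0.0497). Htra1, a serine protease, had 634 ± 48.3 and 577 ± 42.9 (−0.12, unadjusted p = 0.0408), and Ntsr2, a neurotensin receptor, had 498 ± 36.4 and 460.4 ± 38.9 (−0.13, unadjusted p = 0.0417). Each of the 4 lower genes lost its call without some of the libraries and with the log2 size factor as a covariate, and Gpm6b, Sparc and Htra1 lost theirs among libraries with a size factor of at least 1 (p up to 0.427). The call of Gpm6b was lost without replicate 6 or 7 of Sham or 3 or 7 of HF-HI (p up to 0.0660). That of Ntsr2 was lost without replicate 5, 6 or 7 of Sham or 2, 3, 5 or 8 of HF-HI (p up to 0.101). That of Sparc held without replicate 1, 5 or 7 of Sham or 2 or 5 of HF-HI and was otherwise lost (p up to 0.126). That of Htra1 held without replicate 1 or 7 of Sham or 2, 5 or 8 of HF-HI and was otherwise lost (p up to 0.1003). With the transcript annotated as protein coding alone, Htra1 had a difference of −1.03, against −0.12 for the sum of its 2 listed transcripts. The division of reads between them was estimated by the authors' counting, and the value of −1.03 depends on it.

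Among 21 listed regulators and other markers, 2 were called higher and 4 lower, with a median of −0.01. S100a1, a calcium-binding protein, had a lowest, median and highest value of 256, 286 and 292 normalized counts for Sham, against 215, 252 and 279.6 for HF-HI. Every HF-HI value was under the median of Sham, and 5 were under its lowest library. Its log2 difference was −0.19 (95% confidence interval −0.30 to −0.08, limma unadjusted p = 0.00200, adjusted p = 0.267), and the call was kept in all 9 alternatives and all 15 fits that each left out 1 library. Id2, a transcriptional inhibitor, had 1087 ± 33.7 and 985 ± 95.5 (−0.15, unadjusted p = 0.00878), with 7 of 8 HF-HI values under the lowest Sham library. Ndrg2, used as an astrocyte marker, had 3247 ± 105 and 3124 ± 76.3 (−0.06, unadjusted p = 0.0327). Nfia, a factor of astrocyte development, had 428 ± 70.9 and 356 ± 75.0 (−0.26, unadjusted p = 0.0486). The higher genes were Rorb, a nuclear receptor also found in layer 4 neurons, with 1099 ± 80.4 and 1199 ± 86.2 (0.13, unadjusted p = 0.0262), and Ppp1r3c, a glycogen-targeting subunit of protein phosphatase, with 459 ± 27.6 and 501 ± 29.0 (0.12, unadjusted p = 0.0182). The call of Ppp1r3c was lost under both depth settings and without the libraries rich in Ttr (p up to 0.196). That of Rorb was lost without Sham replicate 4 or HF-HI replicate 8 (p up to 0.0694). That of Ndrg2 was lost without replicate 2, 4 or 7 of Sham or 2, 3 or 6 of HF-HI (p up to 0.0709), and that of Nfia held without replicate 5 or 6 of Sham or 1 or 2 of HF-HI and was otherwise lost (p up to 0.109). Both were also lost under both depth settings and without the libraries rich in Ttr.

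**Figure D4:**
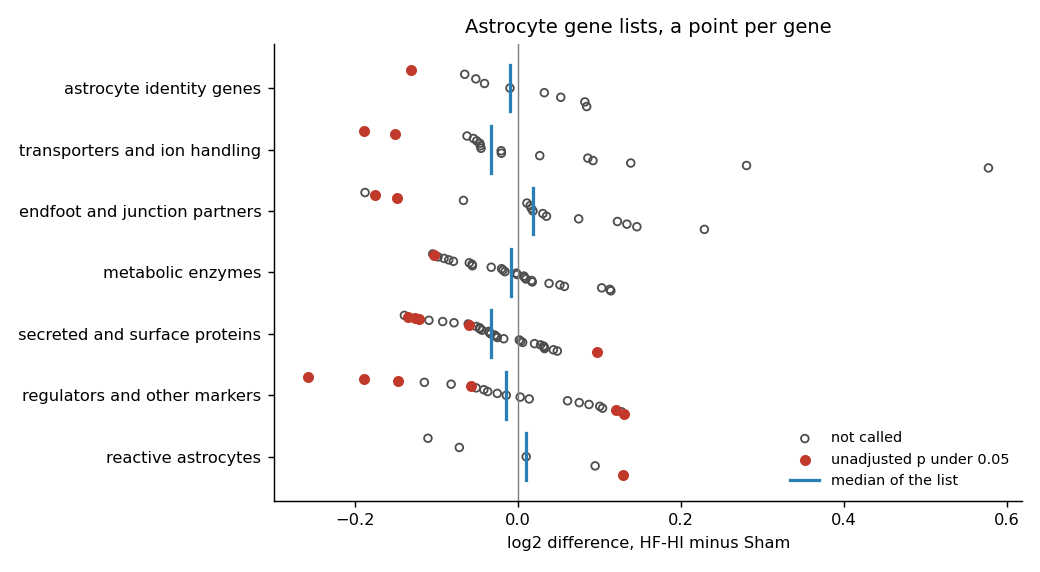
Log2 difference of HF-HI minus Sham (x axis) for the 9 astrocyte identity genes and the listed genes of 6 further astrocyte lists (y axis), with a point per gene, red where the unadjusted p is under 0.05, and a blue bar at the median. The medians lie between −0.03 and 0.02, and 13 of the 17 red points in the 6 further lists lie left of 0.

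Genes raised in reactive astrocytes were covered thinly, since 5 of 39 had a listed transcript. Stat3, a signal transducer of the reactive response that other cells express too, had a lowest, median and highest value of 240.2, 249 and 260.5 normalized counts for Sham, against 252, 271 and 303 for HF-HI. Every HF-HI value exceeded the median of Sham. Its log2 difference was 0.13 (limma unadjusted p = 0.0130, adjusted p = 0.404), and the call was lost with the log2 size factor as a covariate, in libraries with a size factor of at least 1 and without the libraries rich in Ttr (p up to 0.228). Vim, the intermediate filament vimentin, had 178 ± 23.4 and 161 ± 22.3 (−0.11, unadjusted p = 0.266), and Synm, the filament protein synemin, had 423 ± 15.2 and 456 ± 31.2 (0.09, unadjusted p = 0.0560). The other 2, H2-D1 and S100a10, had differences of 0.00980 and −0.07. The remaining 34 genes of the list were not analysed here.

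Markers of other cell types were counted in the same way. Of 8 neuron markers, Snap25, a synaptic vesicle fusion protein, was called higher (15281 ± 1119 and 16700 ± 984 normalized counts, log2 difference 0.13, limma unadjusted p = 0.0130), with a list median of −0.00172. The call of Snap25 was lost with the log2 size factor as a covariate (0.05, unadjusted p = 0.295) and among libraries with a size factor of at least 1 (0.09). None of 6 oligodendrocyte markers was called, and they summed to 27700 to 31827 for Sham and 26104 to 32748 for HF-HI. Of 4 listed microglia markers, P2ry12 was called lower (234 ± 22.6 and 200.4 ± 31.8, −0.19, unadjusted p = 0.0436), a call that held without replicate 2, 5 or 6 of Sham or 8 of HF-HI and was otherwise lost (p up to 0.0985). It was also lost without the libraries rich in Ttr and under both depth settings, where the difference was −0.07 with the covariate and −0.08 in the deep libraries (p up to 0.480). None of 3 listed endothelium markers was called, and they summed to 1093 to 1173 and 915 to 1190.2. The part of these cells in the astrocyte values was not tested.

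**Figure D5:**
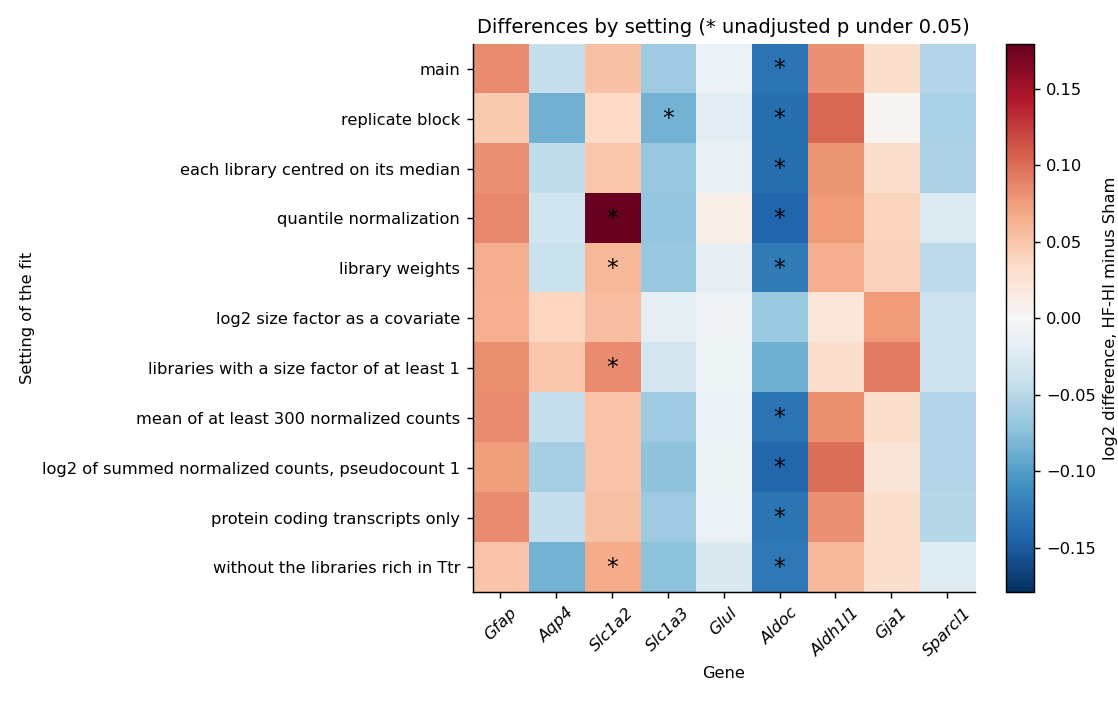
Log2 difference of HF-HI minus Sham (color) for the 9 astrocyte identity genes (columns) under the main setting and 10 alternatives (rows), with an asterisk where the unadjusted p is under 0.05. Aldoc carries an asterisk in 9 of the 11 rows, Slc1a2 in 4 and Slc1a3 in 1, and the sign of Aqp4 turns in the 2 rows that take account of depth.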

How the data were processed

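The authors deposited variance-stabilized values of DESeq2 on the log2 scale for 10370 transcripts, after alignment to mm10 with STAR and counting per transcript with eXpress. Versions of STAR and eXpress are not given in the sources used here. All 15 columns matched a sample by name. The transformation was inverted, and 100% of values were whole reads within 0.1 reads. Transcripts were named from GENCODE M21 (10241 matched), and 7 of 9 members had a RefSeq promoter entry. In all, 3 models were fitted with limma 3.58.1 (R 4.3.3), with group as the only term, two-sided: with trend on the deposited values, voom on reads summed per gene, and with trend on the log2 share of each transcript (pseudocount 0.5). P-values were adjusted by Benjamini-Hochberg over all features at 0.1, and a feature was called at an unadjusted p under 0.05. The code was tested on simulated counts. Depth was compared by exact permutation over 6435 splits.

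The members and gene lists were chosen with earlier results of these data known. All members were described, and a list gene was named where its unadjusted p was under 0.05. Vim, Synm, H2-D1 and S100a10 were named outside that rule, after their values were seen. Labels number the samples but name no animals, so p-values measure the spread between these samples. The lowest mean was 107.9 normalized counts, so scarce transcripts were not analysed here.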

Additional observations from a re-analysis of the deposited data

Results flagged for a closer look

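In 72 groups of values of the members and the named genes, 2 had a library standing apart from the rest by Dixon's criterion, which chance meets in about 1 of 20 groups. Aldoc-202 had 3433 normalized counts in Sham replicate 4, against 2869 to 3108 in the other Sham libraries. Gpm6b had 10341 in HF-HI replicate 8, against 9225 to 9713 in the other HF-HI libraries.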

How the results depend on the processing

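Of the members, the call of Aldoc was lost under the settings that take account of depth, Slc1a3 was called with the replicate block, and Slc1a2 with quantile normalization, with library weights, in deep libraries and without the libraries rich in Ttr. Beside 916 transcripts and 730 genes called in all, 533 and 475 were called with the log2 size factor as a covariate, 541 and 401 among libraries with a size factor of at least 1, and 525 transcripts with a mean of at least 300 normalized counts, where fewer were tested. Member calls numbered 0 with that covariate (genes and transcripts) and 2 with quantile normalization and with library weights (genes and transcripts), and 2 genes were called without the libraries rich in Ttr. Over all features, quantile normalization called 727 of 7740 genes and 903 of 10370 transcripts, and library weights called 813 and 916. The fit without the libraries rich in Ttr called 542 of 7740 genes. The last setting was added after the data were seen. The gene passing an adjusted p under 0.1 became 0 with the replicate block, with quantile normalization, with either depth setting, with the filter at 300, with log2 of summed counts (pseudocount 1) and without the libraries rich in Ttr, and 1 transcript passed among the deep libraries. These signs turned: Aqp4 with the covariate (0.0380 by gene, 0.0141 by transcript) and in deep libraries (0.0495 and 0.0235), Glul with quantile normalization (0.00994 and 0.0111), and Slc1a2-204 in deep libraries (0.0221), with voom on recovered reads (0.0315) and without the libraries rich in Ttr (0.00952). The cause was not tested.

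Replicate numbers are shared between the groups, but same-numbered libraries correlated between −0.138 and 0.0905. That gave no sign of pairing by number, although such correlations cannot exclude it. With the replicate block, 2 member genes (Aldoc and Slc1a3, −0.08, limma unadjusted p = 0.0493) and 2 member transcripts were called. The transcripts were Aldoc-201 and Slc1a2-203 (VSD difference −0.11, limma unadjusted p = 0.0144). The block called 695 of 7740 genes and 891 of 10370 transcripts in all. The calls of Ntsr2, Nfia, Id2, Rorb and Ndrg2 were lost with it. HF-HI replicate 8 shares its number with no Sham library, so the block takes it out of the group difference. The call of Slc1a3 with the block is thus not separate from its call without HF-HI replicate 8 (−0.09, limma unadjusted p = 0.0180). Leaving out 1 library at a time gave 1 to 3 member transcripts, 1 to 2 member genes and 0 to 2 member shares, 0 to 1 transcripts, 0 to 13 genes (13 without replicate 4 and 4 without replicate 5 of Sham, 3 without replicate 5 of HF-HI) and 0 to 2 shares past the adjusted threshold. Over all features, the fits without 1 library called 748 to 987 transcripts, 609 to 808 genes and 225 to 308 shares at an unadjusted p under 0.05. In them the depth difference ran from −0.65 to −0.44, Glul-201 from −0.0193 to 0.000929, Slc1a2-204 from −0.0462 to 0.0161 and its share from −0.248 to 0.0228. Counting all single features, those named above included, values stayed on their side of the threshold and kept their sign in 395 of 465 alternatives. Of the other alternatives, 52 lost a call, 9 gained one and 9 turned the sign. In the fits without 1 library, 622 of 720 values stayed, 78 lost a call, 14 gained one and 6 turned the sign. Counting error gave Slc1a2-204, the member transcript lowest in Sham, a coefficient of variation of 5.82% in Sham and 7.45% in HF-HI, against observed values of 33.2% and 32.95%.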
